A study of Drosophila melanogaster with 2 samples.

Results

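Chromosome 4 of Drosophila melanogaster carried 487 of the 29999 peaks in the pooled relaxed list of an anti-GFP chromatin immunoprecipitation with sequencing (ChIP-seq) of CrebA-eGFP, which is 1.62% of the list on 0.996% of the sequence of the major arms. Members were taken by chromosome name alone, on the dm6 assembly, and those also in the optimal list were marked. Of the 487, 19 were in the optimal list (3.90%), against 7.46% of all pooled peaks and 7.17% of those on the other autosomal arms, the 4 arms of the second and the third chromosomes. The chromatin came from whole larvae of both sexes, pooled, at the wandering stage of the third instar. The line carries a MiMIC insertion that places an eGFP exon in an intron of CrebA, so every sample expresses the fusion. There was 1 group of 2 biological replicates, numbered 4 and 2, with no untagged line or second condition among the samples analysed here. A relaxed list is a ranked list of peaks and background, and the optimal list holds the peaks kept after thresholding by the irreproducible discovery rate (IDR), which compares peak ranks between replicates. Read counts were not analysed, so the depth behind each peak is unknown. A whole larva mixes many tissues, and few cells with strong occupancy cannot be told apart from many cells with weak occupancy.

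Chromosome 4, the dot chromosome, is the smallest autosome of the fly. Much of it is packaged with heterochromatin marks and heterochromatin protein 1, repeats lie between and inside its genes, and the chromosome-specific protein POF coats it. Its genes are nevertheless transcribed, and several encode well-known regulators of development such as ci, ey, toy and pan. CrebA belongs to the CREB3 group of bZIP factors, which bind sites with an ACGT core, and is best known for switching on genes of protein secretion.

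The sequences below show the summit base and 50 bp on either side for 6 of the 19 optimal peaks, all near regulatory genes. They were picked by hand from the 11 optimal windows without an annotated UTR base. They are not strictly the strongest of the 11. A second window near ci, of signal 107, and the window near Tdg, of signal 104, were left out. Both are stronger than the windows shown for the zfh2 intron (102) and upstream of ey (92.2). The windows of the 11 that are not shown hold no match to the motifs marked here, so matches are commoner among those shown. The sequences are from the plus strand of the Release 6 RefSeq assembly, read 5′ to 3′. Capitals mark any match, on either strand, to the GAGA factor, CREB3, ACGTG or DREF motifs, spelled out with the motif counts.
zfh2 promoter (chr4:501620-501720): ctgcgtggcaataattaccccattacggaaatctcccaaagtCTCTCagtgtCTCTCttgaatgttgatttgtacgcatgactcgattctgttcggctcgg
zfh2 intron (chr4:508450-508550): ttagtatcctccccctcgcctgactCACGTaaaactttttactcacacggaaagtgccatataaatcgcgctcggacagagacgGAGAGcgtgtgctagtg
ey upstream (chr4:696856-696956): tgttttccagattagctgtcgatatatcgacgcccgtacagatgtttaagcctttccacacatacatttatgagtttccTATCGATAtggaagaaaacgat
Pur-alpha promoter (chr4:558599-558699): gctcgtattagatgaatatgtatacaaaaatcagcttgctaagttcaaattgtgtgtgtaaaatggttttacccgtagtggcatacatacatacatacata
Mitf intron (chr4:1199310-1199410): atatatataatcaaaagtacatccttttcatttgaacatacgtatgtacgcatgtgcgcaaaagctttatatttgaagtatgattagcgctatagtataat
ci upstream (chr4:60250-60350): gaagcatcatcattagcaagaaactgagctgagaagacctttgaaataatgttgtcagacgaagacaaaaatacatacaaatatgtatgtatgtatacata
The zfh2 promoter window holds GAGAG in 2 places, read here as CTCTC on the plus strand. The window in the zfh2 intron holds ACGTG, read as CACGT, beside GAGAG. The window upstream of ey holds TATCGATA, the site of the DNA replication-related element factor DREF. The other 3 windows, at Pur-alpha, Mitf and the region upstream of ci, hold no match to these.

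Peaks were denser on chromosome 4 than on the other autosomes, and the size of the difference depended on the replicate. The pooled list had 366 peaks per Mb of sequence on chromosome 4 (95% Poisson interval 334 to 400). The other autosomal arms had 274 on 2L, 202 on 2R, 238 on 3L and 240 on 3R, or 238 together. The density ratio was 1.54, with an exact conditional interval of 1.40 to 1.68, which left out 1. In the list of replicate 2 alone chromosome 4 held 572 peaks, 430 per Mb, and the ratio was 1.82 (1.67 to 1.97). In the list of replicate 4 alone it held 341 peaks, 256 per Mb, and the ratio was 1.08 with an interval of 0.966 to 1.20, so the excess did not hold up without replicate 2. All intervals here are 95% intervals that cover counting error only, and neighbouring peaks are not independent.

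**Figure D1:**
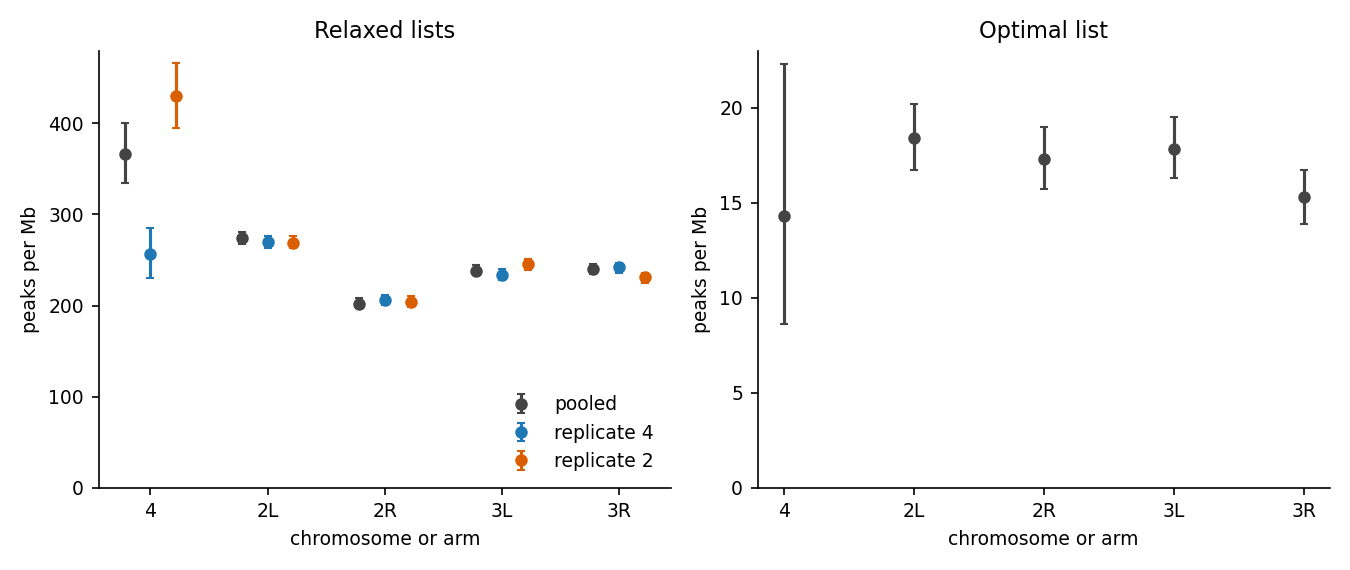
Peaks per Mb of sequence (y axis) on chromosome 4 and on each other autosomal arm (x axis), for the relaxed lists on the left and the optimal list on the right, with 95% Poisson intervals. On chromosome 4 the pooled density was 366, that of replicate 4 was 256 and that of replicate 2 was 430, whereas the 3 lists nearly coincide on every other arm.

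The replicates differed more on chromosome 4 than on the larger arms. The count in replicate 2 was 1.68 times that in replicate 4 on chromosome 4 (1.46 to 1.92). The same ratio was 0.998 on 2L, 0.990 on 2R, 1.05 on 3L and 0.954 on 3R. The ratio on chromosome 4 divided by that on the other arms together was 1.68, with a log-scale interval of 1.47 to 1.93. By rank within each list, replicate 2 had 20 chromosome 4 peaks and replicate 4 had 16 among the strongest 2238. Among ranks 5001 to 10000 they had 144 and 55, and among ranks 10001 to 15000 they had 112 and 70. At the weak end, ranks 25001 to 29999, they had 75 and 45.

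**Figure D2:**
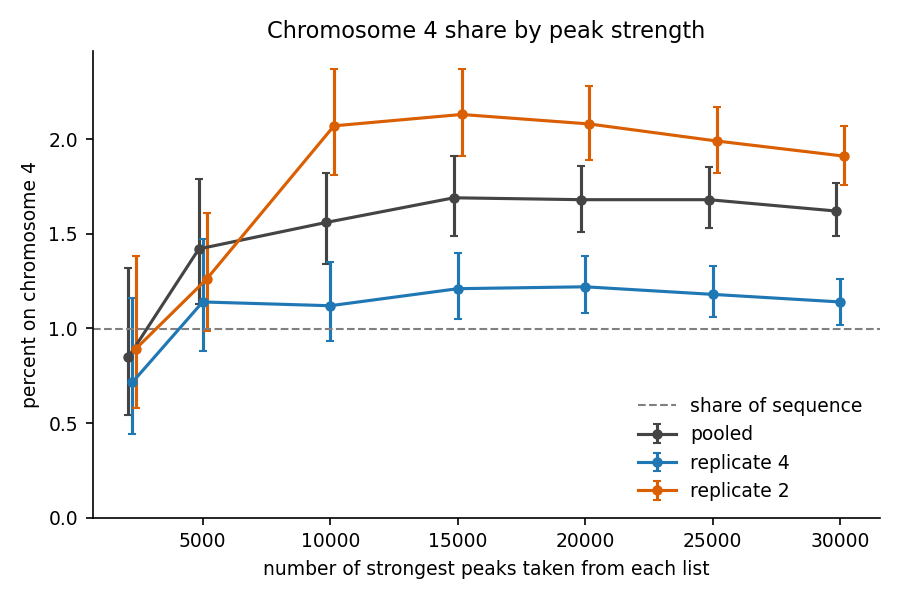
Percent of peaks on chromosome 4 (y axis) among the strongest peaks of each relaxed list, against the number of peaks taken (x axis), with Wilson 95% intervals and the share of sequence, 0.996%, as a dashed line. Points of the 3 lists are set slightly apart along the x axis. At 2238 peaks the pooled, replicate 4 and replicate 2 shares were 0.849%, 0.715% and 0.894%, and at 10000 they were 1.56%, 1.12% and 2.07%.

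The other arms were also cut into 78 consecutive stretches of the length of chromosome 4, 1348131 bp, as a description of local variation. The median stretch held 348 pooled peaks, the fullest held 506, and 1 stretch held at least the 487 of chromosome 4. The fewest, 5 to 58, were in stretches 1 to 3 of 2R, 19 and 20 of 3L and 1 to 3 of 3R. Those stretches were 37.3% to 54.2% repeat-masked, beside a median of 16.7% over the 78. They are part of the 238 peaks per Mb of the other arms. No stretch reached the 572 peaks of replicate 2, the fullest holding 496, whereas 46 of the 78 held at least the 341 of replicate 4. The ratio of replicate 2 to replicate 4 ranged from 0.500 to 1.50 over the stretches, below the 1.68 of chromosome 4. The extremes of that range came from stretches with few peaks.

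**Figure D3:**
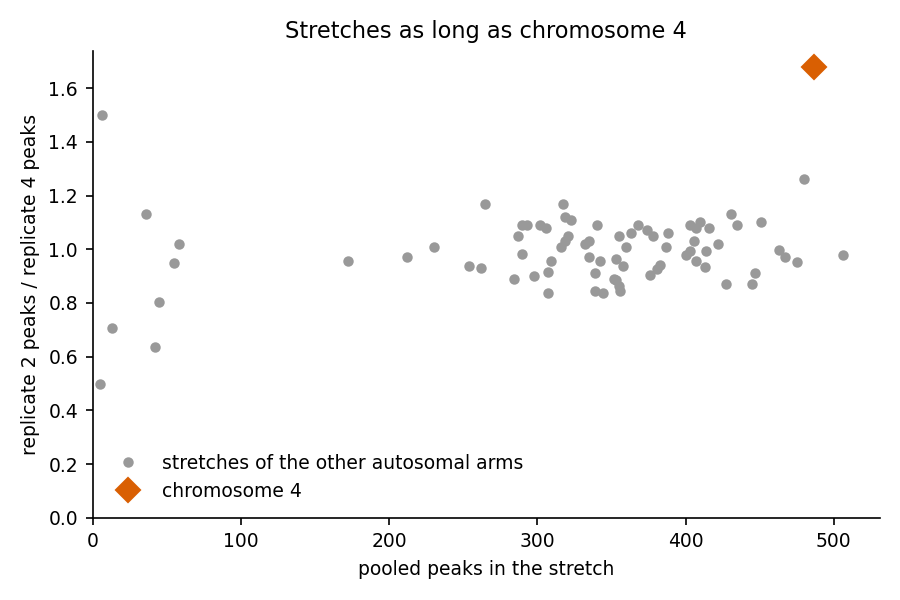
Replicate 2 peaks divided by replicate 4 peaks (y axis) against pooled peaks (x axis) in 78 stretches of the other autosomal arms, each as long as chromosome 4 (grey points), and in chromosome 4 itself (orange diamond). Chromosome 4 lies at 487 pooled peaks and a ratio of 1.68, above every stretch.

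The optimal peaks did not share the excess. All 2237 optimal peaks found in the pooled list are among its strongest 2238 by signal. Within the pooled list, optimal membership thus acts as a cut on pooled signal. The optimal shares below and the shares of peaks with a high signal are therefore not separate results. Their density on chromosome 4 was 14.3 per Mb (8.59 to 22.3), beside 18.4, 17.3, 17.8 and 15.3 on 2L, 2R, 3L and 3R. The ratio to the other arms together, 0.836, had an interval of 0.502 to 1.31 that included 1. The share of pooled peaks that were also optimal was lower by 3.27 percentage points on chromosome 4, with an interval of -4.70 to -1.14 that left out 0. Taking as many of the strongest peaks from replicate 4 alone in place of the optimal list gave a difference of -2.54 points, and its interval reached 0.269. On the dm3 assembly 35 of 503 pooled chromosome 4 peaks were optimal (6.96%), against 12.3% on the other arms.

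The typical signal of a chromosome 4 peak was close to that elsewhere, while fewer of its peaks had a high signal. Signal is the authors' value per peak, whose scaling is not stated, and it ranks peaks within a list only. The median was 23.3 on chromosome 4 and between 22.5 and 23.3 on the other arms. In replicate 4 it was 13.6 beside 13.1 on the other arms together, and in replicate 2 it was 16.0 beside 15.0. The 90th percentile was 51.3 beside 62.9, the 99th 114 beside 182, and the strongest peak had 200. Among the 78 stretches of the other arms of the same length the median maximum was 317, and 16 had a maximum of at most 200. A signal above 100 was reached by 11 of the 487 peaks (2.26%) and by 4.33% of peaks on the other arms, a difference of -2.07 points (-3.10 to -0.317).

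The strongest chromosome 4 peak lay at the promoter of pan (chr4:69375-69778), which encodes TCF, the transcription factor of the Wnt pathway. A promoter peak here has its summit within 500 bp of an annotated start site. The pan peak had a signal of 200 in the pooled list, 94.2 in replicate 4 and 101.1 in replicate 2. Next came a peak of signal 172 in the 3′ UTR of Cals (chr4:1113185-1113588), the gene of calsyntenin, a cadherin-related neuronal membrane protein, with 69.0 in replicate 4 and 96.5 in replicate 2. There the annotated 3′ ends of Cals and of sv, the fly Pax2 gene, overlap, since Cals ends at 1112874 and sv at 1113317. No other chromosome 4 peak was above 148 in the pooled list.

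The region of ci, the transcription factor of the Hedgehog pathway, held 3 optimal peaks. That at its promoter (chr4:56218-56621), which is also the start of the antisense RNA asRNA:CR43957, had a pooled signal of 148, with 63.4 in replicate 4 and 86.3 in replicate 2. The other two lay 2112 and 3259 bp upstream of ci, inside asRNA:CR43957, with pooled signals of 107 and 108. Both were found in each replicate, the first with 46.4 and 71.1 and the second with 55.0 in both. ChIP-seq carries no strand, so signal at ci and at its antisense RNA cannot be told apart.

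The zinc-finger homeodomain gene zfh2 had an optimal peak at its promoter (chr4:501468-501871) and one in an intron 6690 bp from the start (chr4:508298-508701), whose sequences are shown above. Their pooled signals were 114 and 102, with 40.4 and 40.6 in replicate 4 and 63.3 and 54.2 in replicate 2. The divergent genes myo and ey had an optimal peak each. The peak in the 5′ UTR of myo, which encodes the TGF-beta family ligand myoglianin, had a signal of 104, with 58.9 in replicate 4 and 35.6 in replicate 2. The peak 783 bp upstream of ey, a Pax6 gene of eye development, had a signal of 92.2, with 53.1 and 48.6. By rank within each list, the peak of myo stood at 797 in replicate 4 and 4136 in replicate 2, and that of ey at 1041 and 2484.

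At the promoter of Pur-alpha, which encodes a nucleic-acid-binding protein, the signal was 117, with 25.2 in replicate 4 and 93.6 in replicate 2. The intron peak of Mitf, a bHLH factor of the MiT family that regulates lysosomal genes, also had 117, with 39.9 and 80.7. The Mitf summit lay 502 bp from the nearest start, just outside the promoter window. Near Tdg, a thymine DNA glycosylase gene overlapped there by lncRNA:CR43958, the signal was 104, with 38.4 and 67.0. By rank, Pur-alpha stood at 4179 in replicate 4 and 594 in replicate 2, Mitf at 1872 and 839, and Tdg at 2013 and 1298, so all 3 stood higher in replicate 2. The promoter of Hcf, which encodes a chromatin coactivator, had 94.6, with 37.9 and 53.3. That of Sox102F, a SoxD factor, had 91.7, with 25.3 and 60.3. A peak 1126 bp from the start of lncRNA:CR43437 had 91.5, with 35.9 and 51.8. By rank, Hcf stood at 2056 in replicate 4 and 2075 in replicate 2, Sox102F at 4144 and 1643, and the lncRNA:CR43437 peak at 2296 and 2192. The promoter of RpS3A, a protein of the small ribosomal subunit, had 82.9, with 24.6 and 67.3, and that of anne had 81.2, with 27.1 and 47.6. The intron peak of Rnf11, a RING-finger gene, had 83.0 and the promoter of Rad23, a DNA repair and ubiquitin receptor protein, had 80.4. These last were the optimal peaks with no match in replicate 4, and in replicate 2 they had 58.7 and 40.5.

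Of the 19 optimal peaks 17 had a summit within 200 bp in both replicate lists, and of these 8 stood higher by rank in replicate 4 and 9 in replicate 2. By rank, 12 were among the strongest 2238 of replicate 4, 15 among those of replicate 2, 10 in both and 2 in neither. None lay in an annotated transposable element. The lowest signal in the optimal list of all chromosomes was 76.9, and the chromosome 4 peaks just below it were at the promoter of MED26, a Mediator subunit (75.6), between genes at chr4:404317-404720 (75.1) and at the promoter of Ank, an ankyrin (74.5). All 3 had matches in both replicates.

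**Figure D4:**
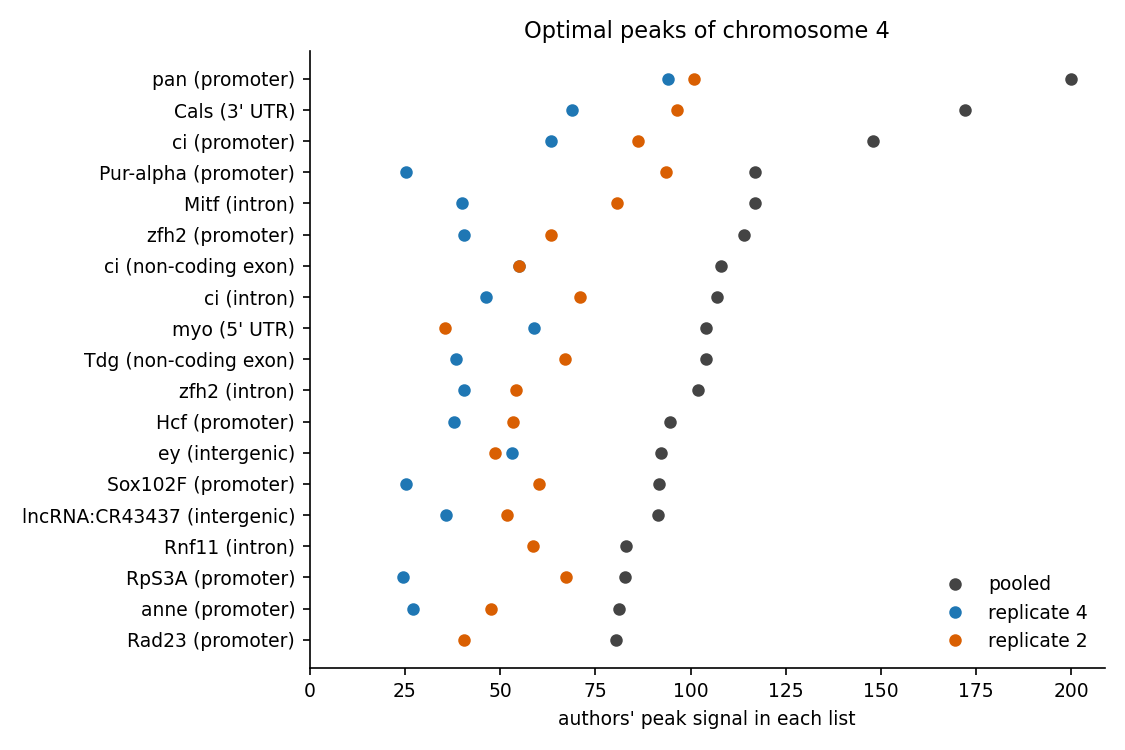
The authors' signal (x axis) of each of the 19 optimal chromosome 4 peaks in the pooled, replicate 4 and replicate 2 lists, ordered by pooled signal and named by promoter gene or, otherwise, nearest start (y axis). Signals run from 200 at pan to 80.4 at Rad23, and a missing blue point means no match in replicate 4.

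Along the chromosome, 14 of the 19 optimal peaks lay left of the midpoint, although 234 of the pooled peaks lay left of it and 253 right. Replicate 4 had 146 left and 195 right, and replicate 2 had 312 and 260. In the second of 14 consecutive bins of 100 kb replicate 4 had 14 peaks and replicate 2 had 56. The median gap between neighbouring pooled summits was 1450 bp, beside 1630 to 1730 bp on the other arms, and the largest was 41244 bp.

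Chromosome 4 peaks lay inside genes more often than those of the other arms. Of the 487, 20.7% were at promoters, with 234 peaks in introns, 36 in coding exons, 32 in 3′ UTRs, 9 in non-coding exons, 2 in 5′ UTRs and 73 between genes. Intergenic peaks were 15.0% beside 29.9% on the other arms, a difference of -14.9 points (-17.9 to -11.4), although intergenic sequence is 18.2% of chromosome 4 and 28.4% of the other arms. The coding exon share was 7.39% beside 2.25%, a difference of 5.14 points (3.13 to 7.82), and the difference was 6.30 in replicate 4 and 5.87 in replicate 2. Among peaks above the median pooled signal it was 2.88 (1.08 to 6.06). None of the 78 stretches of the other arms reached a coding exon share of 7.39%, and the median was 2.24%. A stretch of 3L with 42 peaks came close with 7.14%, and one of 2R with 212 peaks had 7.08%. Those stretches were 42.7% and 31.1% repeat-masked, beside a median of 16.7% over the stretches. Coding exons are 18.8% of chromosome 4 bases and 13.6% elsewhere. The 3′ UTR share was 6.57% beside 3.17%, a difference of 3.40 points (1.51 to 5.97). The promoter share, 18.7% on the other arms, differed by 2.05 points (-1.35 to 5.90), and the intron share, 48.0% beside 44.2%, by 3.89 points (-0.555 to 8.37), so neither difference left out 0. The promoter difference was 3.74 points in replicate 4 and 0.886 in replicate 2. The intron difference was -0.266 points in replicate 4 and 1.35 in replicate 2.

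Per Mb of each class, the excess was found at promoters and coding exons in each replicate but in introns in the pooled list and replicate 2 and not in replicate 4. Promoter windows on chromosome 4 held 697 pooled peaks per Mb beside 322 on the other arms, a ratio of 2.16 (1.76 to 2.63). The promoter ratio was 1.64 (1.29 to 2.05) in replicate 4 and 2.41 (1.99 to 2.88) in replicate 2. Coding exons held 142 beside 39.3 per Mb, a ratio of 3.62 (2.51 to 5.08), with 2.10 (1.45 to 2.96) in replicate 4 and 5.49 (3.94 to 7.49) in replicate 2. The counts behind these were 34 peaks in replicate 4 and 44 in replicate 2 on chromosome 4, and 949 and 470 on the other arms, so the replicate ratios differed largely through the other arms. Introns held 407 beside 272 per Mb, a ratio of 1.50 (1.31 to 1.70), but in replicate 4 the ratio was 0.959 (0.810 to 1.13). For 3′ UTRs the ratio was 1.78 (1.21 to 2.54), and 1.20 (0.741 to 1.85) in replicate 4. Intergenic sequence gave 1.19 (0.929 to 1.49).

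**Figure D5:**
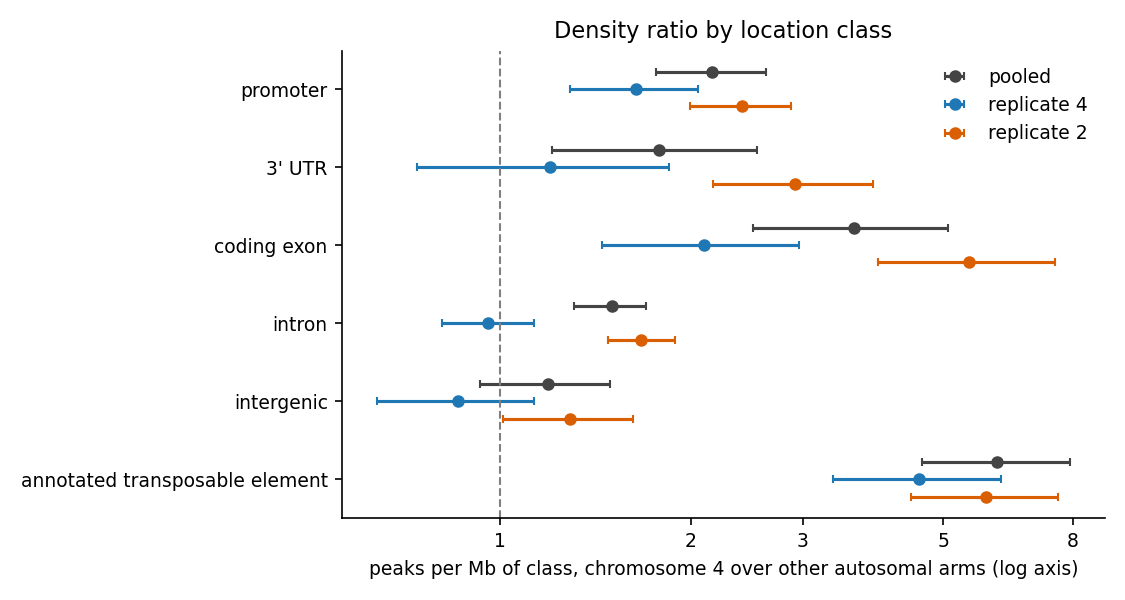
Pooled, replicate 4 and replicate 2 peaks per Mb of each location class on chromosome 4 divided by the same on the other autosomal arms (x axis, log scale), by class (y axis), with exact conditional 95% intervals and a dashed line at 1. The promoter ratio was 2.16 in the pooled list and 1.64 in replicate 4, whereas the intron ratio was 1.50 and 0.959. Transposable elements overlap the other classes.

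The coding exon peaks were weak. Their median signal was 20.8 and their maximum 58.3, in pan, and none was optimal. The gene with most of them was bt, which encodes the giant muscle protein projectin, with 7 of at most 23.3. It was followed by apolpp, the precursor of the lipophorin proteins that carry lipid in the hemolymph, with 5, and pan with 4. Over the whole gene body pan held 24 pooled peaks, unc-13 20, bt 19, and Cadps and Sox102F 18 each. These are long genes, of 34.0 to 52.1 kb. Per Mb of gene the counts were 534, 449, 365, 440 and 530 in that order, beside 366 over all of chromosome 4. The highest rate among the genes with most body peaks was 857 per Mb, in a gene of 15.2 kb. The genes unc-13 and Cadps act in the release of synaptic and dense-core vesicles, and their strongest body peaks had signals of 59.7 and 55.7. That of unc-13 lay in an exon of the antisense RNA asRNA:CR44029, and that of Cadps in an annotated transposable element in an intron.

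Most chromosome 4 genes had a pooled promoter peak. This held for 59 of the 80 protein-coding genes (73.8%, Wilson interval 63.2 to 82.1) and for 24.7% of the 11669 genes on the other arms, a difference of 49.0 points (38.4 to 57.4). In replicate 4 it held for 44 genes (55.0%, beside 25.4%) and in replicate 2 for 68 (85.0%, beside 27.1%). Promoter peaks were found in both replicates for 42 genes, in replicate 4 only for CG1909 and mGluR, in replicate 2 only for 26 and in neither for 10. Those 10 included the mitochondrial respiration genes ATPsynbeta and ND-49, the axon guidance receptor gene PlexA, and onecut, pho and NfI, which encode transcription factors. Of the 6, pho alone had a pooled promoter peak, of signal 23.7. Chromosome 4 genes carried 1.78 annotated start sites each beside 1.38 and had a median length of 10100 bp beside 2090. With the 5′ end of each gene alone the difference was 37.9 points.

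Optimal promoter peaks were found at 9 of the 80 genes (11.2%, beside 5.24%), a difference of 6.01 points (0.771 to 14.8). This difference did not hold up with the strongest peaks of replicate 4 alone, where it was 2.01 points with a lower bound of -2.03. With the 5′ end of each gene alone it was 3.58 points, with a lower bound of -0.451. With promoter windows of 1000 bp it was 10.9 points (4.13 to 20.7). The 9 genes were pan, ci, Pur-alpha, zfh2, Hcf, Sox102F, RpS3A, anne and Rad23.

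Genes were grouped by role in hand-made lists that do not hold every such gene of the chromosome, and pho, for example, is in none. Over all 80 protein-coding genes of chromosome 4, 73.8% had a pooled promoter peak and 11.2% an optimal one. The pooled count of each list is near that share, and with lists of 10 or 13 genes the optimal counts are not read as differences between roles. Of 13 listed transcription factor genes 10 had a pooled promoter peak and 4 an optimal one, at pan, ci, zfh2 and Sox102F. The median of the strongest promoter signals in this list was 44.1, beside 47.0 over the 59 genes of the chromosome with such a peak. Below the optimal list stood ey with 52.5, sv with 35.7, toy, another Pax6 gene, with 28.3, fd102C with 23.1, Mitf with 19.2 and dati with 16.6. The genes onecut, NfI and Taf3 had none in the pooled list, although Taf3 had one of 21.0 in replicate 2. Of 13 genes for synapse, channels and axon guidance, 10 had a pooled promoter peak and none an optimal one, with a median of 21.0. The highest among them were Eph, the Ephrin receptor gene, with 69.1 and CaMKII, a calcium-dependent kinase of synaptic plasticity, with 48.0. PlexA, PlexB and Ephrin had none in the pooled list, but in replicate 2 Ephrin had one of 44.0 and PlexB one of 29.1.

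Of 10 genes on the signalling list 7 had a pooled promoter peak, with a median of 59.1. Only Pur-alpha, which encodes a nucleic-acid-binding protein and was placed on that list by hand, had an optimal promoter peak. The small GTPase gene Arl4 had 70.3, the lipid kinase gene PIP4K 67.0 and Actbeta, an activin ligand gene, 52.9. The genes lgs, of the Wnt pathway, Crk, an adaptor, and Slip1 had none in the pooled list or in replicate 4, but in replicate 2 they had peaks of 74.6, 58.7 and 21.4. Of 10 genes used in most cells or in muscle, 8 had a pooled promoter peak and 3, at Hcf, RpS3A and Rad23, an optimal one, with a median of 68.2. Next were Ank with 74.5, gw, of microRNA silencing, with 62.0 and PMCA, a calcium pump, with 56.8, while bt had 17.8. The gene Arf4, named after its value was seen because Arf GTPases act in membrane traffic, had 69.4 with matches in both replicates.

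The pooled peaks matched the replicates unequally. A match within 200 bp in replicate 4 was found for 52.6% of chromosome 4 peaks, beside 62.4% on the other arms, and in replicate 2 for 73.3% beside 64.6%. Matches in replicate 2 only were 38.8% beside 27.2%, a difference of 11.6 points (7.39 to 16.1). Matches in both were 34.5% beside 37.4%, a difference of -2.91 points (-7.04 to 1.45). By class, introns had 148 peaks in replicate 4 and 264 in replicate 2, a ratio of 1.78 (1.45 to 2.20), 3′ UTRs 21 and 52, and promoters 77 and 123. On the other arms the intron ratio was 1.02.

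Transposable elements cover 24.8% of chromosome 4 and 5.79% of the other arms. They held 75 of the 487 summits (15.4%), beside 0.899% on the other arms. Per Mb of element this was 225 beside 36.9, a ratio of 6.08 (4.63 to 7.92), with 4.58 in replicate 4 and 5.83 in replicate 2. Elements as a whole were still less often hit than their cover on both, with a peak share of 0.622 times the base share on chromosome 4 and 0.155 times elsewhere. The strongest element peak on chromosome 4 had a signal of 58.7. INE-1, a short element with 344 copies there, held 44 of the 75 summits, and the 60 copies of 1360 held 13. Unlike elements as a whole, INE-1 did not hold fewer peaks per Mb than all sequence. It held 452 beside 366 on chromosome 4, and 269 beside 238 on the other arms together. By arm this was 281 beside 274 on 2L, 270 beside 202 on 2R, 238 beside 238 on 3L and 310 beside 240 on 3R. No interval was computed for INE-1, so an excess there was not tested against counting error. INE-1 covers 97346 bp of chromosome 4 and 353581 bp of the other arms, and so a larger part of the elements of chromosome 4. The ratio of 6.08 therefore compares unlike mixes of elements. Whether reads that map to several places were kept is not given in the sources used here.

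Base composition moved with the chromosome. In windows of 100 bp on either side of the summits 30.2% of bases were repeat-masked on chromosome 4 and 20.7% on the other arms, beside 28.1% and 19.8% over the whole sequence. The GC share at summits was 33.6% beside 38.9%, and 35.2% beside 42.2% over the whole sequence. In replicate 4 the GC share at summits was 33.9% beside 39.8% and in replicate 2 33.2% beside 39.0%. The part of repeats and base composition in the density or in the difference between replicates was not tested.

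Short motifs were searched on both strands in the same windows around each summit. GAGAG, the site of GAGA factor, was in 3 of the 19 optimal windows of chromosome 4 (15.8%) and in 39.5% of those of the other arms, a difference of -23.7 points (-34.3 to -1.86). Over all pooled summits the shares were 17.2% and 23.2%, and over consecutive windows of the same length along the sequence 17.4% and 21.6%. CACGTCA, a CREB3 site, was in none of the 19 optimal windows, which allows a share of up to 16.8%. On the other arms it was in 1.13% of optimal windows. It was in 7 of the 487 pooled windows (1.44%), beside 0.868% on the other arms. In consecutive windows the shares were 0.952% on chromosome 4 and 0.984% on the other arms. The shorter ACGTG, which every CACGTCA also holds on its other strand, was in 4 of the 19 (21.1%), beside 19.5% on the other arms. Over the pooled windows it was in 17.0% beside 15.4%, and over consecutive windows in 14.3% beside 16.0%. TATCGATA was in 14 pooled windows (2.87%) beside 0.606%, a difference of 2.27 points (1.11 to 4.16), and in 1.98% of consecutive windows beside 0.516%. TGTTTAC, a forkhead site, was in 2.67% beside 5.08%, a difference of -2.41 points (-3.54 to -0.545), and in 4.41% of consecutive windows beside 3.90%. AGATAA, which serpent and its relatives bind, was in 13.1%, a difference of 0.165 points (-2.58 to 3.48), and in 13.6% of consecutive windows beside 11.1%. A match says only that the letters are present.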

How the data were processed

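Per the labels, chromatin of whole larvae was sonicated and precipitated with an anti-GFP antibody. The authors deposited narrowPeak lists on dm6 and dm3. Per the deposited notes, relaxed lists of peaks and background, made from alignments with a control as input to IDR, exist for each replicate and for the pooled replicates, and the optimal list was thresholded by IDR. Which aligner, caller and cutoff were used is not given in the sources used here. The deposited signal values, in the authors' units, ranked peaks within a list. The deposited −log10 q-value reached the same ceiling, 3.12, at the strongest peaks and was not used to rank them. The deposited summit offset gave each summit. Each relaxed dm6 list held 29999 peaks, so counts are relative to that length. The optimal list held 2238 peaks, of which 2237 are pooled peaks with the same interval. All 2237 are among the strongest 2238 of the pooled list by signal. Pooled chromosome 4 peaks were all 404 bp wide.

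Genes, start sites and transposable elements came from Ensembl release 115 (BDGP6.54), and sequence from the Release 6 RefSeq assembly, in which all dm6 peaks ended. Each summit, and each base, got 1 location class, with promoters taking precedence, then 5′ UTRs, then coding exons, then 3′ UTRs, then non-coding exons, then introns, and the rest intergenic. A gene had a promoter peak where a summit lay within 500 bp of any of its start sites. Densities are per base other than N and carry exact Poisson intervals, ratios carry exact conditional binomial intervals, shares Wilson and their differences Newcombe intervals. No p-value was computed, since peaks are not replicates. The conditional binomial and Newcombe intervals and the matching were tested on simulated data with independent draws. The other intervals were not tested in this way. The dm3 chromosome lengths were not used here, and dm3 densities are per span of peaks. Python 3.11.15, numpy 2.4.6, pandas 2.3.3 and scipy 1.17.1 were used.

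Named genes were those at, holding or nearest to an optimal summit, the same for the 3 strongest pooled peaks outside that list, and the genes of 4 role lists, of which 44 names matched a symbol and 3 a synonym. Others were named for a small count after their values were seen. The members, lists and tests were chosen with earlier results of these data known. Alternatives were each replicate alone, peaks above the median signal, dm3, other windows and match distances, unmasked bases and densities per gene.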

Additional observations from a re-analysis of the deposited data

How the results depend on the processing

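Of 57 alternatives, 39 left the result unchanged. For density ratios and differences of peak or gene shares, this means the same direction and the same side of the threshold. The median signal, masked share and GC share have no threshold. For them it means a shift smaller than the standard deviation of the 2 replicate values. The pooled density ratio, 1.54, ranged from 1.08 to 1.82 with one replicate at a time, and the interval included 1 without replicate 2. It was 2.74 per protein-coding gene. The optimal density ratio, 0.836, ranged from 0.700 to 0.872 over replicates, but was 1.09 over unmasked bases only and 1.49 per protein-coding gene. The optimal share of pooled peaks, -3.27 points, ranged from -2.54 to -3.79 over replicates, with an interval that included 0 without replicate 2. The ratio of median signals, 1.02, was 1.04 to 1.07 over replicates, 0.987 among peaks above the median pooled signal and 0.986 on dm3. The intron difference, 3.89 points, ranged from -0.266 to 1.35 over replicates, was -2.73 among peaks above the median signal and 5.29 with promoter windows of 250 bp, where its interval left out 0. The difference in genes with an optimal promoter peak, 6.01 points, ranged from 2.01 to 8.96 over replicates, and was 2.07 in the stronger part of the optimal list and 3.58 from the 5′ end of each gene alone, both with intervals that included 0, and 10.9 with promoter windows of 1000 bp. The promoter share difference, 2.05 points, ranged from 0.886 to 3.74 over replicates, and the coding exon difference, 5.14 points, was 2.88 among peaks above the median signal. The difference in peaks matched in both replicates, -2.91 points, was -8.32 among peaks above the median signal, where its interval left out 0. The masked share difference, 9.46 points, was 7.66 among those peaks, and the GC difference, -5.30 points, was -4.95 there, -5.48 over 50 bp on either side and -6.04 over whole peaks. The cause of these changes was not tested. The coding exon difference, the ratio between replicates and the use of 5′ ends alone were chosen after seeing the data. No paired analysis was possible because there is 1 group. Depth limits could not be given, since read counts were not analysed, and the list length is fixed, so a count on chromosome 4 is a share of a ranked list rather than a number of sites called in a library.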
